A study of Homo sapiens with 15 samples.

Results

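The step from 0.25 to 0.5 µM martinostat was the comparison of 6 of the 15 mRNA libraries of this series, 3 at each of the 2 concentrations. Its libraries were taken by the columns of the count table. The step had been named beforehand as that with the sharpest change of the response. Counts of calls in neighbouring steps are therefore no independent test of where the response turns. All libraries came from K562, an established line of BCR-ABL positive chronic myeloid leukaemia cells that carries part of the red cell programme. Cells of 1 group of 3 libraries had been left untreated, and the other 4 groups had been exposed for 24 h to 0.15, 0.25, 0.5 or 1 µM of martinostat, an inhibitor of histone deacetylases (HDACs). The design named independent biological replicates and no vehicle for the untreated cells, and a single line was measured at a single time. The question was which genes turn in this step of the dose series.

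Histone deacetylases remove acetyl groups from histones and other proteins, and their inhibition changes the transcription of many genes in both directions. In cells of the red lineage, GATA1 works with TAL1, LMO2, LDB1 and KLF1 at enhancers of the genes for the red cell membrane, heme synthesis and globins. In BCR-ABL positive cells the kinase keeps STAT5, ERK and MYC signalling active. RNA amounts in bulk cultures cannot tell fewer cells of a kind from less RNA per cell.

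The 6 libraries held 23755510 to 31141230 counts, and values in CPM are counts-per-million scaled with the trimmed mean of M values (TMM). Untreated libraries had the markers of the line: GATA1 stood at 323 to 335 CPM, KLF1 at 377 to 439 CPM and TFRC, the transferrin receptor, at 1125 to 1344 CPM. The replicate 3 libraries of both concentrations stood apart. Their TMM factors were 1.28 at 0.25 µM and 1.22 at 0.5 µM against 0.950 to 1.11 in the other 4 libraries of the step, and on the second principal component they lay at 45.3 and 83.4 against -13.2 or lower. Counts are therefore given with and without them. Markers of lymphoid, monocyte and stromal cells summed to 366 to 451 CPM at 0.25 µM and 411 to 519 CPM at 0.5 µM, with at most 1 of the 15 markers at 0 counts in a library. Of the 14 that were tested, CSF1R rose and LYZ, CD3D, COL1A2 and EPCAM fell, and the part of such cells in the results was not tested.

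Of 23711 tested genes, 7211 (30.4%) were called between 0.25 and 0.5 µM with edgeR's quasi-likelihood F statistic, at p under 0.05 after Benjamini-Hochberg adjustment. Of these, 3409 (14.4% of the tested genes) rose towards 0.5 µM and 3802 (16%) fell. Changes over 2-fold numbered 1627 (6.86%) higher and 2222 (9.37%) lower. The step before it, from 0.15 to 0.25 µM, gave 2911 calls (12.3%), and the step after it, from 0.5 to 1 µM, gave 0 (0%). In the step after it 372 genes had an unadjusted p under 0.05, less than a share of 0.05 of the tested genes. Without both replicate 3 libraries 7713 genes were called, 3736 higher and 3977 lower. The split depended on the scaling: by library totals 2409 were higher and 4521 lower, so the higher share of the calls was 34.8% against 47.3% with TMM, with -0.12 in place of 0.02 as the median log2 fold change over the tested genes. The libraries of the 2 concentrations did not overlap in 6573 (91.2%) of the called genes and in 9158 (38.6%) of all tested genes.

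In the 2044 genes that averaged 100 CPM or more over the 6 libraries, 524 calls were upwards and 291 downwards. Between 10 and 100 CPM it was 1636 upwards and 1820 downwards, out of 8084. Protein-coding genes were called higher in 18.2% and lower in 18.8% of cases, and long non-coding RNA genes in 6.84% and 12.8%. The counts of called list members below stand against these shares.

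Consecutive steps were set against each other to ask which genes changed more here than on either side. The change differed from that of the preceding step in 1867 genes (7.87%) and from that of the following step in 2277 genes (9.6%). A gene that moved over 2-fold and passed both tests of difference in the direction of its change is called a switch gene below, and the 0.25 and 0.5 µM libraries enter both sides of these tests. There were 250 switch genes that rose (1.05% of the tested genes) and 727 that fell (3.07%). Pairing libraries by replicate number raised the numbers to 4224 and 4340 genes for the tests of difference and to 566 rising and 1187 falling switch genes. Without both replicate 3 libraries there were 404 and 953 switch genes. Single libraries at 0.5 µM also moved these counts: the rising switch genes numbered 162 without replicate 1, 125 without replicate 2 and 589 without replicate 3, the last with 1168 falling ones. For the preceding step the number was 1166 without replicate 2 at 0.25 µM, 1070 without replicate 3 at 0.25 µM and 3664 without replicate 3 at 0.5 µM, and for the following step 1438 and 1320 without replicates 1 and 2 at 0.5 µM.

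Windows of 250 bases before to 50 bases after a transcription start (RefSeq, GRCh38.p14) were read for 14019 tested genes, 19835 windows in all, and searched on both strands for 10 motifs. Windows of the rising switch genes were the richest in G and C, with a median of 69.7%, against 63.7% for all tested genes and 58.7% for the falling switch genes. GGGCGG, the GC box, was in 78.5% of the windows of rising switch genes, in 46.8% of those of falling switch genes and in 61.4% of all. CCAAT was in 48.2%, 27.6% and 34.5%, and AGATAA, the motif of the GATA factors, in 4.38%, 12.4% and 6.78%, in the same order. TATAAA was in 12.4%, 11.1% and 7.31%. In that order, CACGTG was in 7.66%, 8.72% and 8.83%, TGANTCA in 4.38%, 8.95% and 5.74%, and TGACGTCA in 2.92%, 0.942% and 2.61%. GGCGGGAA was in 4.01%, 2.83% and 4.4%, TTCNNNGAA in 4.38%, 6.71% and 6.38%, and TGACNNNGC in 17.9%, 11.9% and 14.5%. GGCGGGAA overlaps GGGCGG where a G precedes it. These are shares of letters in a window, given with no test, and they move with base composition.

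Promoters of genes that fell and of genes that rose follow, 5′ to 3′. HEMGN and ALAS2, red cell genes that fell, are shown with AGATAA or its reverse complement in capitals (chr9:97938123-97938422 and chrX:55030928-55031227, both minus strand). In the HEMGN window shown the match begins 114 bases before that window's start site, and a second HEMGN window (chr9:97944803-97945102) holds 0 matches. In ALAS2 the match begins 127 bases before the start.
HEMGN: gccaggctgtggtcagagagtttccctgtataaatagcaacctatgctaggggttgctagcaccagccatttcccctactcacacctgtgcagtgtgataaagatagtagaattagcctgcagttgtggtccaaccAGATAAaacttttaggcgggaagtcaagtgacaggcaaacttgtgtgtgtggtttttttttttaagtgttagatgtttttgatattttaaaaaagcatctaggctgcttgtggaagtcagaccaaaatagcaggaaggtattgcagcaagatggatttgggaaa
ALAS2: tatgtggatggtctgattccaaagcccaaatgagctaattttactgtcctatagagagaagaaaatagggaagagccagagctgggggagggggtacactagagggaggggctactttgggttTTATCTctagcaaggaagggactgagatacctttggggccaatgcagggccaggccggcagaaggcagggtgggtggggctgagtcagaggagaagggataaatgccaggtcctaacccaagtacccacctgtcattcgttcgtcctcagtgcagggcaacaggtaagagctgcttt
NEU1 and MCOLN1, lysosomal genes that rose, are shown with the E-box CACGTG in capitals (chr6:31862772-31863071, minus strand, and chr19:7522374-7522673, plus strand). The NEU1 match begins 126 bases before the start, and MCOLN1 holds 2 matches, 41 and 14 bases before it.
NEU1: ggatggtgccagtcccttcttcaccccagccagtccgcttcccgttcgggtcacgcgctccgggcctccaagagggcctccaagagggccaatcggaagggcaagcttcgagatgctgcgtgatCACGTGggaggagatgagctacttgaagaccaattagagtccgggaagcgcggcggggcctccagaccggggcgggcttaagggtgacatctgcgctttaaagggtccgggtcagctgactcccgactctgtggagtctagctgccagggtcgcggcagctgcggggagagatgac
MCOLN1: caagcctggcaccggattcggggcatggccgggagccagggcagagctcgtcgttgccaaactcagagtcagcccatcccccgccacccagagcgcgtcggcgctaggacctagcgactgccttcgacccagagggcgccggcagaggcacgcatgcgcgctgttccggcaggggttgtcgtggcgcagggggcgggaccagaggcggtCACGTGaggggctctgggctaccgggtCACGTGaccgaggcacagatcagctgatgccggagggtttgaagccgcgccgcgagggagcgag
TUBB3, the tubulin with the largest increase, is shown with GGGCGG or its reverse complement in capitals (chr16:89923092-89923391, plus strand, 5 matches). It is 1 of 2 windows of that gene, and the other holds no GC box.
TUBB3: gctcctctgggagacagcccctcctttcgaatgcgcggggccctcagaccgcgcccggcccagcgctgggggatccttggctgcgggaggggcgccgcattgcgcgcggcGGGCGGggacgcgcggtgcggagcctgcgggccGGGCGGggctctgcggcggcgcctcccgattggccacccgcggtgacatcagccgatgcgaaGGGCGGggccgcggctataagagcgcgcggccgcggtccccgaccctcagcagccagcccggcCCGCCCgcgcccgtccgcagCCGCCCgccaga

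The transcription factors of the red lineage fell together. Of 14 tested erythroid and stem cell factors, 12 were called lower and 0 higher, the median log2 fold change was -2.52 against 0.02 for all tested genes, and 9 were switch genes. GATA1, the master regulator of the lineage (chrX:48786540-48794311), had 204, 168 and 146 CPM in replicates 1, 2 and 3 at 0.25 µM and 15.7, 14.2 and 16.6 CPM at 0.5 µM. The groups were far apart, with -3.48 as the log2 fold change (SE 0.17) and 6.32e-11 as edgeR's adjusted p. KLF1, which switches on adult globin and membrane genes, went from 65.0, 49.3 and 33.7 CPM to 3.40, 3.05 and 2.07 CPM, with a log2 fold change of -4.13 (SE 0.23). At 0.25 µM GATA1 and KLF1 were already below their untreated values, which are given above. For NFE2, the erythroid partner of the small MAF proteins, the values were 447, 371 and 333 CPM against 14.4, 14.7 and 15.7 CPM, a 25.7-fold lower mean. Untreated, NFE2 had 257 to 268 CPM and at 0.15 µM 375 to 536 CPM, all above the libraries at 0.5 µM. GFI1B, a repressor needed for erythroid and platelet precursors, dropped from 39.7, 45.8 and 40.9 CPM to 3.14, 2.76 and 2.45 CPM.

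Other members of the group fell by less. TAL1 went from 131 ± 19.6 CPM to 25.4 ± 8.18 CPM (SD, n = 3), LMO2 from 25.8 ± 3.73 to 4.03 ± 0.514 CPM and MYB, a factor of proliferating precursors, from 241 ± 16.4 to 36.4 ± 11.8 CPM. SPI1, the myeloid factor PU.1, took another path: untreated libraries had 27.4 to 35.5 CPM and those at 0.15 µM 122 to 131 CPM, followed by 86.6, 95.2 and 68.5 CPM at 0.25 µM and 11.9, 11.9 and 8.87 CPM at 0.5 µM. RUNX1, a factor of blood stem cells, was highest at 0.25 µM, at 214 to 299 CPM, and had 65.8 to 119 CPM at 0.5 µM. The factors that changed least among those called were LDB1, from 139 ± 15.9 to 77.1 ± 0.567 CPM, and ZFPM1, the GATA1 cofactor FOG1, from 118 ± 22.2 to 64.2 ± 17.5 CPM. LDB1 had also fallen from 0.15 to 0.25 µM (log2 fold change -0.73). GATA2, the factor of earlier precursors, was not called: it had 313, 306 and 210 CPM against 207, 253 and 216 CPM (-0.29, adjusted p 0.166 in edgeR's test), and was called lower without both replicate 3 libraries (-0.41, adjusted p 0.0168).

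**Figure D1:**
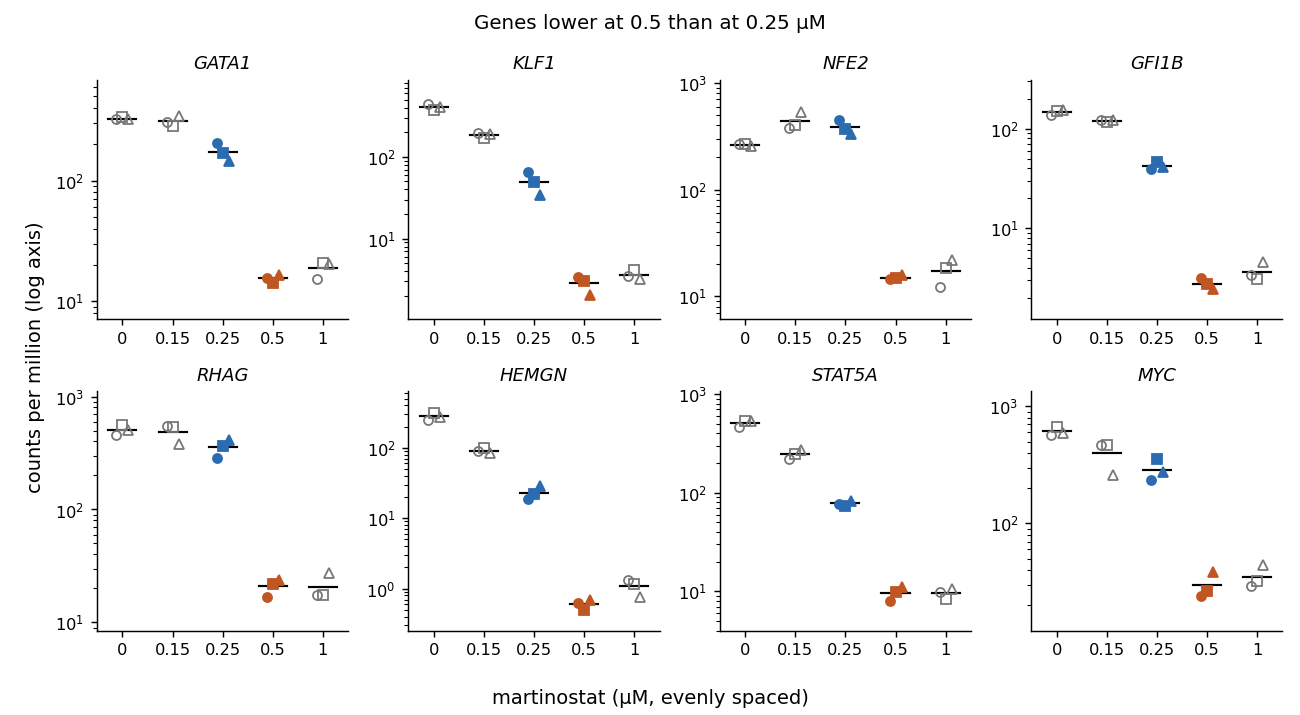
CPM (log axis) of 8 genes lower at 0.5 than at 0.25 µM, in each of the 15 libraries against the martinostat concentration (evenly spaced, 0 for untreated); circles, squares and triangles are replicates 1, 2 and 3, filled symbols the libraries of the step and bars the group means. GATA1 lay at 146 to 204 CPM at 0.25 µM and at 14.2 to 16.6 CPM at 0.5 µM, and the 1 µM libraries of each gene lay near those at 0.5 µM.

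Genes of the red cell membrane and of red cell maturation, taken as 1 list, fell with these factors. Of 15 tested members, 10 were called lower and 0 higher, with a median of -2.37, and 8 were switch genes. Among all tested genes 16% were called lower and 3.07% were falling switch genes. HEMGN, a nuclear protein of erythroid precursors whose promoter is shown above, had already fallen before the step, from a mean of 279 CPM untreated to 91.1 CPM at 0.15 µM. It had 18.6, 22.0 and 28.8 CPM at 0.25 µM and 0.618, 0.502 and 0.680 CPM at 0.5 µM. Its mean was 38.6-fold lower (log2 fold change -5.24, SE 0.23, adjusted p 2.28e-11 in edgeR's test). RHAG, the Rh-associated glycoprotein, went from 285, 367 and 415 CPM to 16.8, 22.0 and 24.0 CPM. Its libraries at 0.15 µM had 378 to 552 CPM and overlapped those at 0.25 µM. GYPB and GYPE changed by -3.49 and -4.36, and their values are uncertain because reads may have been split among near-identical genes. ANK1, of the membrane skeleton, fell from 217, 235 and 217 CPM to 22.9, 29.6 and 27.9 CPM. TFRC was not called (373 ± 58.1 and 467 ± 41.3 CPM, adjusted p 0.144 in edgeR's test), and was called higher with libraries paired by number (0.33, adjusted p 0.0397) and without both replicate 3 libraries (0.49, adjusted p 0.0152).

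Enzymes of heme synthesis split by isoform at the first step of the pathway. ALAS2, the erythroid form of the rate-limiting enzyme, fell from 164, 152 and 158 CPM to 34.5, 34.7 and 14.8 CPM, and ALAS1, the housekeeping form, rose from 63.1, 74.3 and 52.0 CPM to 312, 318 and 277 CPM. Neither gene overlapped between the groups. Their log2 fold changes were -2.50 (SE 0.24) and 2.26 (SE 0.15), both switch genes. Of the 10 members tested, 6 were lower and 2 higher, the other higher one being ALAD (1.04). Of 9 globins tested, 2 were lower (HBD, -2.09, and HBQ1, -1.25) and 0 higher, or 5 lower with libraries paired by number. HBQ1 overlapped between the groups, and its call was lost in 7 of 16 alternatives, among them the fit without both replicate 3 libraries (-1.20, adjusted p 0.0513). HBZ, the embryonic zeta chain, had 185, 216 and 68.3 CPM against 81.6, 92.9 and 20.7 CPM and was not called (-1.27, adjusted p 0.0555), but was called when paired by number (-1.37, adjusted p 1.48e-09), with replicate 3 the lowest at each concentration.

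MYC and the STAT5 genes fell in the same step, and MYC and STAT5A had also fallen before it. Mean MYC was 610 CPM untreated, 399 CPM at 0.15 µM and 286 CPM at 0.25 µM, and mean STAT5A was 510, 247 and 77.9 CPM. MYC (chr8:127735434-127742951), a driver of growth, had 233, 351 and 273 CPM at 0.25 µM and 24.2, 26.4 and 38.5 CPM at 0.5 µM (log2 fold change -3.27, SE 0.26). Among its network partners MXD1 and MXD4, which compete with MYC for MAX, rose from 12.1 ± 2.37 to 50.1 ± 4.00 CPM and from 106 ± 23.0 to 288 ± 78.2 CPM (SD, n = 3). STAT5A had 76.4, 74.2 and 83.1 CPM against 7.95, 9.75 and 11.2 CPM, and STAT5B 124, 155 and 175 CPM against 34.9, 37.1 and 44.4 CPM. Both fell, by 3.01 and 1.96 on the log2 scale, and PIM1, a kinase gene activated by STAT5, fell by 1.95. SOCS3, a feedback inhibitor of JAK kinases, rose from 79.9 ± 16.5 to 236 ± 7.74 CPM. Over the JAK-STAT5 list, 5 of 12 were lower and 3 higher, or 7 and 4 without both replicate 3 libraries.

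The parts of the fusion kinase itself were not called. BCR had 279, 313 and 225 CPM against 302, 361 and 240 CPM, and ABL1 403, 471 and 341 CPM against 453, 519 and 371 CPM, with overlapping groups and log2 fold changes of 0.15 for each (adjusted p 0.593 and 0.57 in edgeR's test). Gene counts do not separate the fusion from the normal transcripts. Of 21 adaptors and ERK feedback genes tested, 9 were lower and 3 higher. SPRY2, a feedback inhibitor of ERK signalling, fell from 11.5 ± 1.96 to 3.43 ± 0.659 CPM, and DUSP5, a phosphatase of ERK, rose from 16.9, 17.9 and 13.8 CPM to 23.3, 28.9 and 31.7 CPM.

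Regulators of cell death moved in both directions. Of 15 tested BCL2 family genes 4 were higher and 3 lower, beside 18.2% and 18.8% of protein-coding genes. BCL2L1, which encodes the survival protein BCL-XL, fell from 195, 181 and 148 CPM to 35.1, 39.7 and 29.9 CPM, and 41.3% of its exon bases are shared with other genes, so its value is uncertain. MCL1, another survival gene of the same family, rose from 312, 359 and 333 CPM to 805, 894 and 908 CPM. Both were switch genes with groups that did not overlap. BIK, a pro-death member, rose from 1.83 ± 0.533 to 5.48 ± 0.223 CPM, and BAD was not called (15.4 ± 9.05 and 29.1 ± 25.2 CPM). In the death receptor pathway CFLAR, which blocks caspase-8 activation, fell from 113, 95.8 and 151 CPM to 12.5, 10.3 and 23.9 CPM, whereas TNFRSF10B, the TRAIL receptor DR5, rose from 85.4 ± 13.0 to 262 ± 22.4 CPM. Of 15 genes of that list 7 were lower and 5 higher, or 8 and 1 by library totals.

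Of 5 genes for inhibitors of cyclin-dependent kinases (CDKs) 3 rose and 1 fell, and of 12 genes for cyclins and CDKs 3 rose and 6 fell. CDKN1C, which encodes p57, had 114, 91.6 and 69.3 CPM at 0.25 µM and 1051, 963 and 553 CPM at 0.5 µM (log2 fold change 3.22, SE 0.27, a switch gene). CDKN1A (p21) rose 2.69-fold and CDKN2D (p19) 2.22-fold, and CDKN1B (p27) fell from 54.6 ± 3.33 to 30.5 ± 1.65 CPM. CCND1 and CCND2, cyclins of early G1, fell by 2.13 and 1.41 on the log2 scale, and CDK6, their kinase, by 1.24. CCNE2 and CDK2, which act at the entry into S phase, rose from 3.16 ± 0.739 to 7.12 ± 0.936 CPM and from 24.5 ± 0.558 to 39.4 ± 1.27 CPM. CCNE2 had 11.2 ± 1.66 CPM untreated, and 37.1% of its exon bases are shared with other genes, so its value is uncertain. CCNE1 also rose (0.46), a call that 7 of 16 alternatives did not give, library totals (0.30) being one. Mean CPM untreated and at 0.15 µM was 82.3 and 34.6 for CDK2 and 81 and 37.4 for CCNE1. At 1 against 0.15 µM, a comparison sharing no library with the step, CCNE2 and CDK2 were not called. Their log2 fold changes were 0.23 and 0.22 (adjusted p 0.523 and 0.189 in edgeR's test), and CCNE1 was called lower (-0.50). Of the 12 cyclin and CDK genes, 0 were higher and 10 lower there, and 2 were higher and 9 lower at 0.15 µM against untreated. CCNA2, a cyclin of S phase and mitosis, had 92.4, 125 and 61.7 CPM against 60.4, 73.2 and 26.8 CPM, passed at an adjusted p of 0.0496 in edgeR's test and overlapped between the groups. Its call was lost in 6 of 16 alternatives, with -0.53 without replicate 2 at 0.25 µM and -0.48 without replicate 3 at 0.5 µM. CDK1 and CCNB2 changed by -0.68 and -0.65, and without replicate 3 at 0.5 µM by -0.43 and -0.37, which were not called. CCNB1 and CDK4 were not called (adjusted p 0.0719 and 0.189) and were called lower when paired by number (-0.61, adjusted p 0.000194, and -0.37, adjusted p 0.0149).

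Of 26 replication genes tested, 8 were higher and 2 lower, with a median log2 fold change of 0.38. Their median from 0.15 to 0.25 µM, a step that shares the 0.25 µM libraries, was -1.06. At 0.15 µM against untreated, 0 of the 26 were called higher and 23 lower. At 1 against 0.15 µM, which shares no library with the step, 3 were higher and 15 lower. CDC6, a licensing factor for replication origins, had a mean of 167 CPM untreated and 61.2 to 69.8 CPM at 0.15 µM. It had 29.6, 33.7 and 29.4 CPM at 0.25 µM and 79.4, 81.8 and 40.3 CPM at 0.5 µM, lowest in replicate 3. Between 0.15 and 1 µM CDC6 was not called (0.09, adjusted p 0.745 in edgeR's test). CDT1, which loads the MCM helicase, was called higher (1.00, adjusted p 0.0486) with overlapping groups, a call lost in 7 of 16 alternatives. MCM3 fell from 360 ± 16.0 to 205 ± 34.0 CPM, after a log2 fold change of -0.87 from 0.15 to 0.25 µM. Both without both replicate 3 libraries and with libraries paired by number, 14 replication genes were higher. The mitosis list had 4 of 18 genes lower and 0 higher (3 and 2 without both replicate 3 libraries), near the 18.8% lower among protein-coding genes. Of the growth lists, ribosome biogenesis had 6 of 18 lower and 0 higher (11 and 1 when paired), and the mitochondrial ribosome had 6 of 16 lower and 0 higher (10 lower when paired). None of the 20 genes of the cytosolic ribosome was called by edgeR's test, and 5 were higher without both replicate 3 libraries and 4 when paired.

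Tubulin genes rose as a group. Of 12 tested, 9 were higher and 0 lower, with a median of 1.69. TUBB3, the beta-tubulin of neurons whose promoter is shown above, had 3.90, 3.33 and 2.43 CPM at 0.25 µM and 40.6, 35.3 and 31.1 CPM at 0.5 µM, 11.1-fold higher on average. TUBB2B had 139, 145 and 82.1 CPM against 750, 681 and 318 CPM, and TUBA1A 320, 279 and 168 CPM against 1004, 953 and 661 CPM, replicate 3 being the lowest at each concentration. The 3 tubulins not called were TUBA1B, TUBB6 and TUBB, with log2 fold changes of -0.02, 0.11 and 0.22. Tubulin genes resemble each other in sequence, and fragments shared between them could not be assigned. Genes of neurons rose in 9 of 19 cases and fell in 1, with ELAVL3, an RNA-binding protein of neurons, going from 0.644, 0.286 and 0.326 CPM to 6.54, 7.49 and 3.54 CPM.

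Of 21 lysosome genes 12 were higher and 2 lower, and of 20 autophagy genes 9 were higher and 2 lower, beside 14.4% higher and 16% lower among all tested genes. NEU1, the lysosomal sialidase, had 156, 166 and 96.0 CPM at 0.25 µM and 1264, 1198 and 680 CPM at 0.5 µM (log2 fold change 2.91, SE 0.24). MCOLN1, the calcium channel of the lysosome membrane, went from 21.1, 19.9 and 12.1 CPM to 69.2, 71.0 and 39.0 CPM, and NPC1, a cholesterol exporter, from 51.8 ± 7.56 to 126 ± 10.7 CPM. These 3 were switch genes. The proteases CTSL and CTSZ fell, by 0.96 and 0.70 on the log2 scale. CACGTG was in the promoter windows of 7 of the 14 lysosome genes with a window: ATP6V0D1, CTSA, CTSD, GAA, LAMP1, MCOLN1 and NEU1, of which 5 were called higher and CTSD and GAA were not called. By windows, the motif was in 7 of the 15 of these lysosome genes and in 8.83% of those of all tested genes. It was in 7.04% of the windows of genes that rose over 2-fold and in 9.12% for genes that fell over 2-fold. SQSTM1, the autophagy receptor p62, rose from 134, 116 and 78.4 CPM to 669, 576 and 390 CPM, and ULK1, the kinase that starts autophagy, from 30.6 ± 3.05 to 80.3 ± 15.0 CPM. MAP1LC3B, a component of autophagosomes, rose 2.31-fold and PINK1, a kinase of mitophagy, 1.47-fold. TFEB, the transcription factor of lysosome genes, was not called: it had 37.8, 29.4 and 15.6 CPM against 34.2, 28.7 and 17.7 CPM (-0.04, adjusted p 0.936 in edgeR's test).

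**Figure D2:**
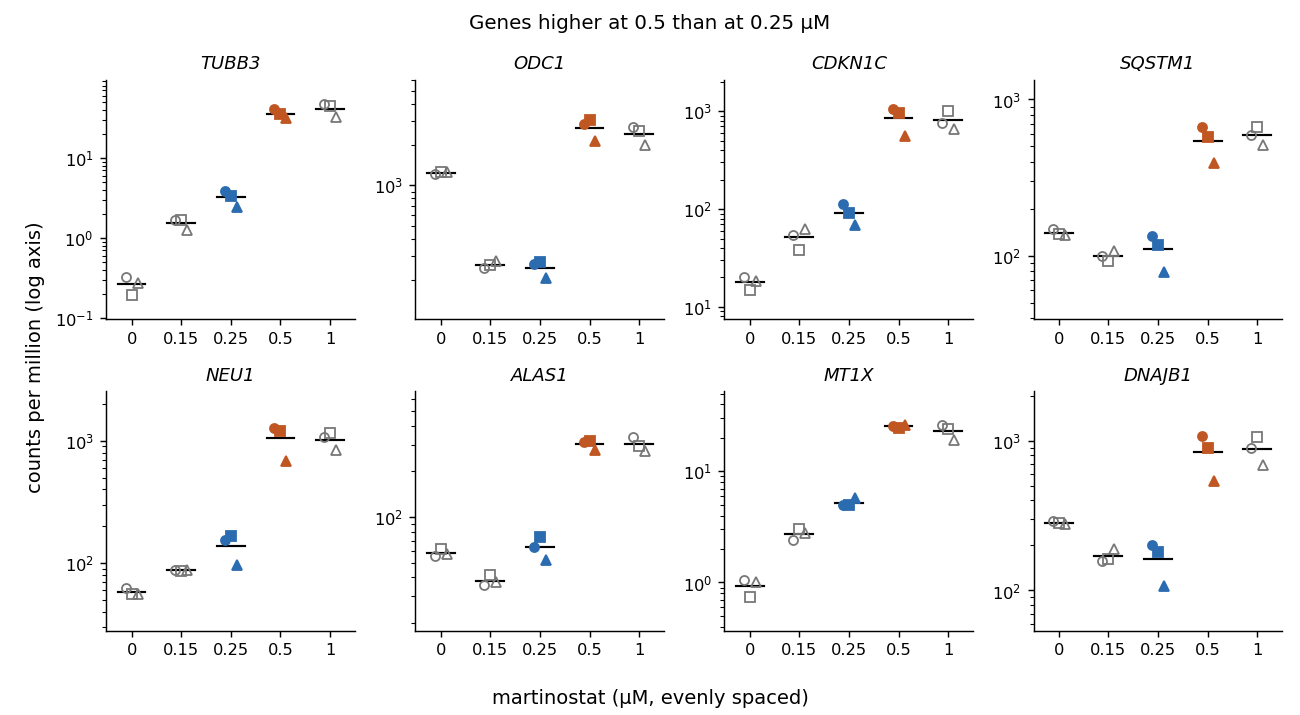
CPM (log axis) of 8 genes higher at 0.5 than at 0.25 µM, in each library against the martinostat concentration, with symbols and bars as in the plot of falling genes. ODC1, SQSTM1, DNAJB1 and ALAS1 were lower at 0.15 µM than in untreated cells and above both at 0.5 µM, and TUBB3 and MT1X rose at each concentration up to 0.5 µM.

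ODC1, the first enzyme of polyamine synthesis, dipped and then overshot. It had 1221, 1255 and 1250 CPM untreated, 244, 260 and 275 CPM at 0.15 µM, 262, 273 and 205 CPM at 0.25 µM and 2865, 3025 and 2147 CPM at 0.5 µM. The step was 10.9-fold (log2 fold change 3.44, SE 0.19, adjusted p 4.73e-10 in edgeR's test). SAT1, which starts polyamine breakdown, rose too, from 70.4, 66.4 and 88.0 CPM to 200, 210 and 421 CPM, and SRM, spermidine synthase, was called lower (-0.81) with overlapping groups and a value of -0.50 without replicate 3 at 0.5 µM. Metallothioneins, which bind zinc and copper, rose in 4 of 6 cases, with MT1X going from 5.02, 4.97 and 5.71 CPM to 25.8, 24.6 and 26.1 CPM and MT2A 3.83-fold higher. Copies of this family are close in sequence, so their separate values are uncertain.

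Heat shock genes split by member. DNAJB1 and HSPA1A, inducible chaperones, rose from 201, 181 and 107 CPM to 1070, 902 and 540 CPM and from 69.2, 69.2 and 44.8 CPM to 300, 295 and 168 CPM, and HSPA1A has a near-identical neighbour with which it may share reads. HSPH1 fell from 57.1, 64.8 and 58.5 CPM to 24.8, 23.4 and 11.9 CPM. Of 12 members 5 were higher and 4 lower. Among 17 glycolysis genes 3 were higher and 5 lower, beside 18.2% and 18.8% of protein-coding genes. SLC2A1, the glucose transporter GLUT1, was lower (262 ± 33.9 and 74.9 ± 11.2 CPM). ALDOA was higher by 1.71 on the log2 scale, although 54.2% of its exon bases are shared with other genes. IDI1, an enzyme of isoprenoid synthesis, rose by 1.31 on the log2 scale, and of the 18 cholesterol and fatty acid genes 4 were higher and 4 lower, near the 18.2% and 18.8% of protein-coding genes.

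Among genes of chromatin, HDAC7 fell from 46.3 ± 5.06 to 14.2 ± 3.09 CPM and HDAC5 rose from 70.7 ± 17.0 to 136 ± 29.8 CPM, with 5 of 11 HDAC genes higher and 2 lower. HEXIM1, an inhibitor of the elongation kinase P-TEFb, rose from 112 ± 8.28 to 263 ± 6.07 CPM, and KAT2B, the acetyltransferase PCAF, fell from 44.9 ± 13.3 to 17.0 ± 5.94 CPM. Of 15 genes for polycomb and DNA methylation 6 were higher and 3 lower. Of 10 high mobility group genes 6 were lower and 1, HMGN2, was higher. H3-3B, one of the genes of replication-independent histone H3, rose 2.51-fold, and H2AZ1 fell by 0.70 on the log2 scale.

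Ligands that natural killer cells recognise moved in both directions. ULBP1 rose from 3.56, 6.16 and 8.26 CPM to 22.2, 25.4 and 30.7 CPM, and MICA and MICB rose 1.82-fold and 2.03-fold. NCR3LG1, the ligand B7-H6, fell from 45.6, 60.0 and 69.8 CPM to 13.9, 14.3 and 19.2 CPM. Over the list, 6 of 9 were higher and 2 lower. In the interferon list 3 of 14 were higher and 5 lower, or 1 and 5 by library totals, with IRF7 rising from 13.4, 13.0 and 6.19 CPM to 103, 76.4 and 40.4 CPM and IFIT3 falling from 1.71 ± 0.396 to 0.292 ± 0.143 CPM. Of the AP-1 factors 4 of 12 were higher and 4 lower, with FOSB up by 2.03 and FOSL2 down from 47.1 ± 4.39 to 11.7 ± 2.01 CPM.

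**Figure D3:**
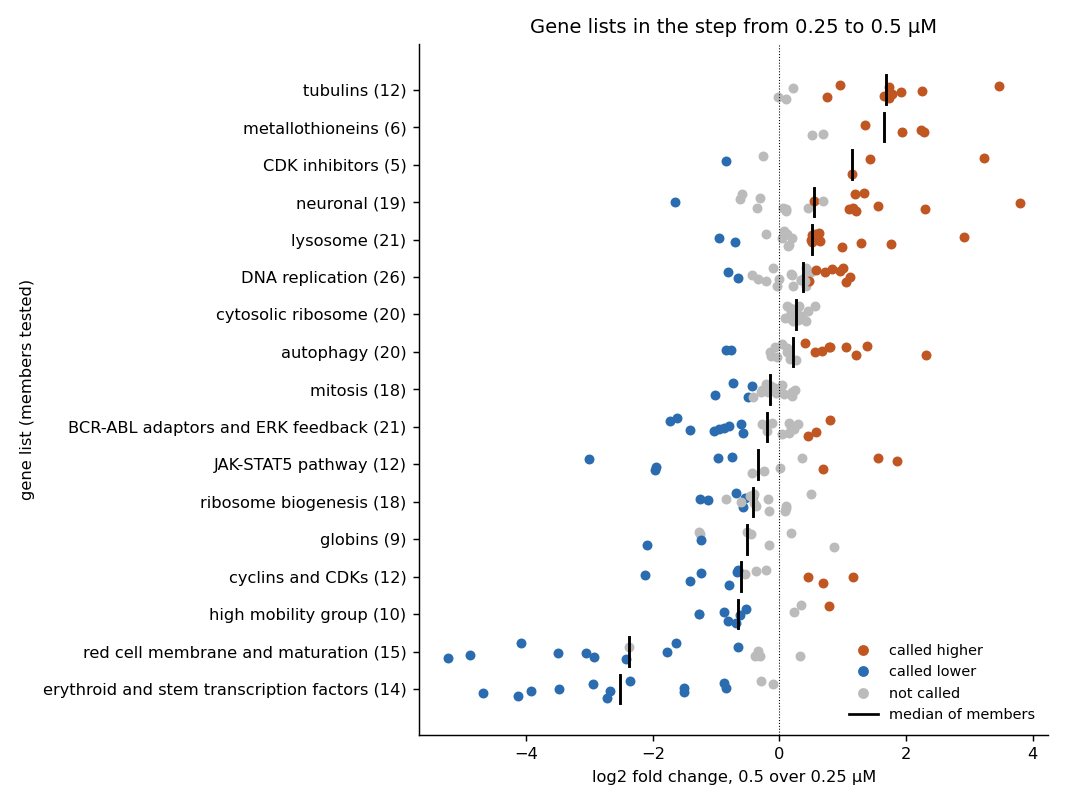
Log2 fold change from 0.25 to 0.5 µM of the tested members of 17 gene lists, 1 point per gene, with the number tested in parentheses and the list median as a black bar. Of the erythroid and stem cell factors 12 of 14 were called lower, of the tubulins 9 of 12 were called higher, and the cytosolic ribosome had no called gene.

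The largest increases were sought where the 6 libraries averaged 10 CPM or more and the groups did not overlap. MIR7-3HG, a host transcript of a microRNA, had 0 counts in all untreated libraries, 9.46, 10.7 and 10.4 CPM at 0.25 µM and 379, 343 and 478 CPM at 0.5 µM, a log2 fold change of 5.30 (SE 0.20). Its change from 0.15 to 0.25 µM was 5.05, so it did not count as a switch gene, and the table does not measure the microRNA itself. LINC01511 rose 21.8-fold. FTCD, an enzyme of histidine breakdown, had 1.65 to 1.80 CPM at 0.15 µM, 2.68, 2.29 and 1.98 CPM at 0.25 µM and 52.8, 45.0 and 26.8 CPM at 0.5 µM and was a switch gene. EPPK1, a cytolinker of epithelial cells, rose from 47.9, 57.3 and 27.9 CPM to 680, 729 and 408 CPM, and PLIN5, a lipid droplet protein, from 26.1 ± 4.01 to 275 ± 61.6 CPM. TCN2, a carrier of vitamin B12, went from 5.41 ± 0.131 to 45.2 ± 9.37 CPM. FAUP4 rose by 3.48, but all of its exon bases are shared with other genes and its value is uncertain.

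Among the largest decreases by the same rule, MIR223HG, SLAMF6, CBFA2T3 and LINC02772 had been called higher at 0.15 µM than in untreated cells. MIR223HG, the host transcript of another microRNA, had 4.93 to 10.5 CPM untreated, 38.4 to 52.0 CPM at 0.15 µM, 12.6, 13.4 and 73.9 CPM at 0.25 µM and 0, 0 and 0.408 CPM at 0.5 µM. Its log2 fold change was -7.56 (adjusted p 6.35e-05), and -11.46 without both replicate 3 libraries, the only libraries with the high value at 0.25 µM and with counts at 0.5 µM. SLAMF6, a surface receptor of lymphocytes, had 2.78 to 3.37 CPM untreated, 33.9 to 35.4 CPM at 0.15 µM, 18.8, 22.3 and 35.6 CPM at 0.25 µM and 0.442, 1.17 and 0.925 CPM at 0.5 µM. CBFA2T3, a corepressor of the TAL1 complex, had 256 to 311 CPM at 0.15 µM, 91.9, 83.8 and 77.6 CPM at 0.25 µM and 2.56, 2.80 and 3.18 CPM at 0.5 µM. LINC02772 went from 70.8, 61.5 and 144 CPM to 1.37, 1.80 and 4.13 CPM.

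**Figure D4:**
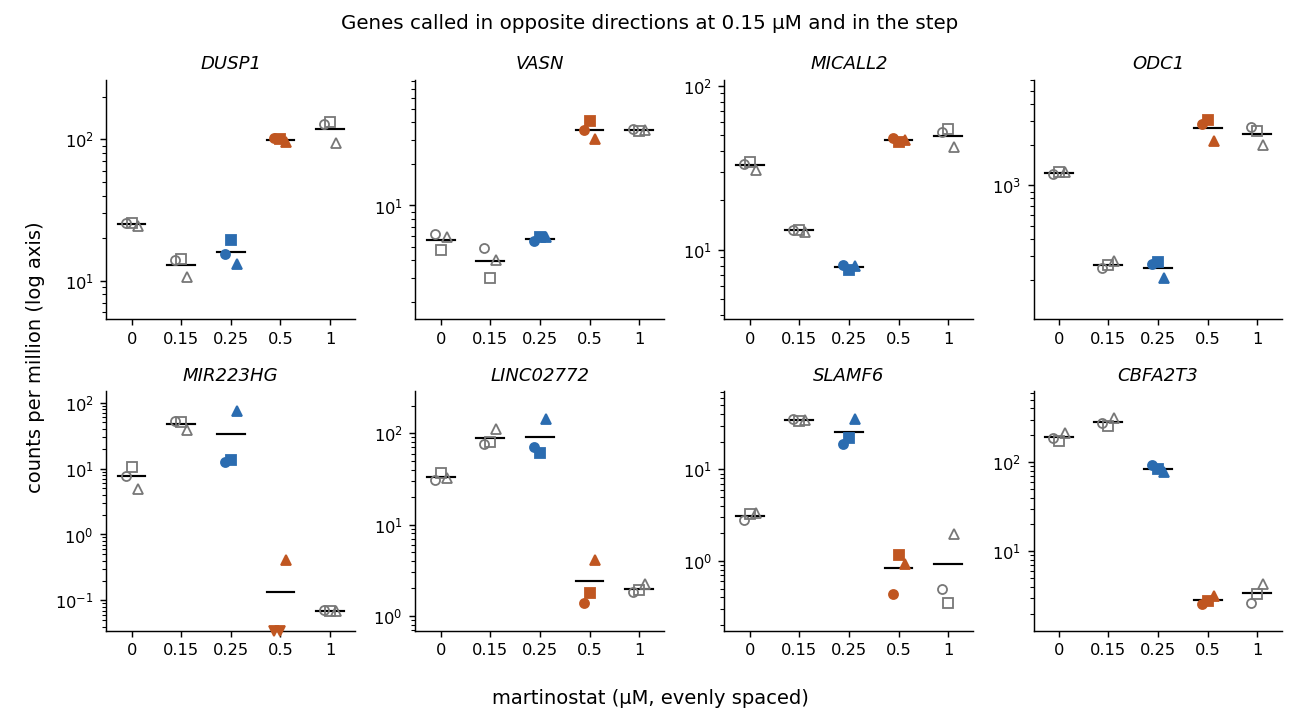
CPM (log axis) of the 8 genes of at least 10 CPM with the largest changes among those called in opposite directions at 0.15 µM against untreated and in the step, in each library, with symbols and bars as in the plot of falling genes; triangles on the lower edge that point down are libraries with 0 counts. SLAMF6 had at most 3.37 CPM without the drug, at least 33.9 CPM at 0.15 µM and had at most 1.17 CPM at 0.5 µM.

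Some genes were silent on one side of the step. Of the tested genes, 7 had 0 counts in all libraries at 0.25 µM and counts at 0.5 µM, and 29 had 0 counts at 0.5 µM and counts at 0.25 µM. Within the step such genes could be tested only through the side where they are high. IGLJ3 had 33, 43 and 33 counts at 0.5 µM, at least 44.9-fold higher than the floor of 3 counts over the 0.25 µM libraries together, and 0 counts in untreated cells and at 0.15 µM. TXNL4AP1 had 36, 23 and 23 counts at 0.25 µM and was at least 24.2-fold lower at 0.5 µM, and PPDPFL, with 20, 21 and 41 counts, at least 22.7-fold lower.

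Genes were also compared with their change at 0.15 µM, since the comparison of 0.15 µM with untreated cells shares no library with the step. At 0.15 µM 7557 genes (31.9%) were higher and 4591 (19.4%) lower, with a median of all genes of 0.28 on the log2 scale. Of the 3802 genes that fell in the step 1411 (37.1%) had been called higher at 0.15 µM and 1030 (27.1%) lower, and of the 3409 that rose 1331 (39%) had been called higher and 749 (22%) lower. Of the 2222 genes that fell over 2-fold in the step, 1036 (46.6%) had been called higher at 0.15 µM and 337 (15.2%) lower. Of the 1627 that rose over 2-fold, 827 (50.8%) had been called higher at 0.15 µM and 129 (7.93%) lower. These shares stand beside the 31.9% higher and 19.4% lower among all tested genes. DUSP1, a phosphatase of stress kinases, was among those that turned upwards, with 24.5 to 25.6 CPM untreated, 10.7 to 14.4 CPM at 0.15 µM, 15.6, 19.5 and 13.1 CPM at 0.25 µM and 102, 101 and 96.0 CPM at 0.5 µM. MICALL2 had 12.9 to 13.3 CPM at 0.15 µM, 8.07, 7.55 and 7.91 CPM at 0.25 µM and 47.9, 45.5 and 46.6 CPM at 0.5 µM, and VASN rose 6.15-fold in the step.

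The comparison of 1 with 0.15 µM also shares no library with the step, and it spans it. There 5090 genes (21.5%) were higher and 5472 (23.1%) lower. Of the 3409 genes higher in the step 2853 (83.7%) were higher there too and 5 were lower, and of the 3802 lower genes 3320 (87.3%) were lower and 5 higher. Dispersions were estimated over all 15 libraries in both comparisons.

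**Figure D5:**
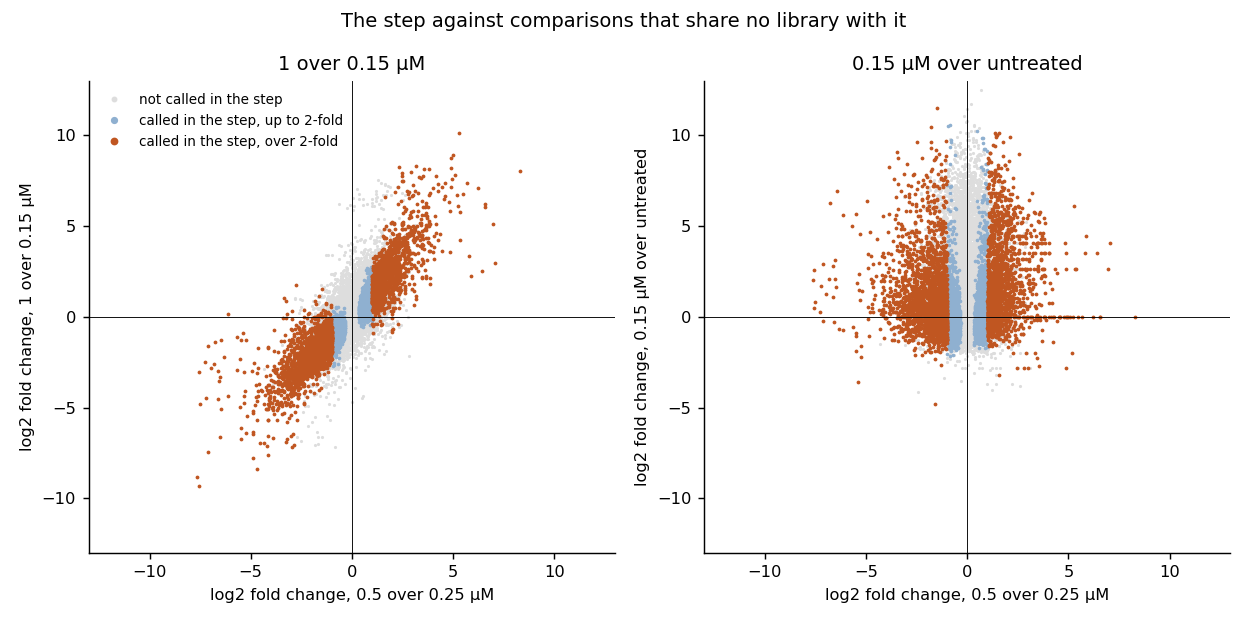
Log2 fold change from 0.25 to 0.5 µM (horizontal) against that of 1 over 0.15 µM (left) and of 0.15 µM over untreated (right), 1 point per tested gene, coloured by its call in the step. Of the genes higher in the step, 83.7% were called higher at 1 than at 0.15 µM, and 37.1% of the genes lower in the step had been called higher at 0.15 µM than untreated, beside 31.9% of all tested genes; 1 gene lies outside the right panel.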

How the data were processed

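mRNA from 15 K562 libraries, 5 groups of 3 by concentration, was sequenced. Per the submitters' notes and methods, the authors trimmed reads (Trim Galore 0.6.10), aligned them to hg38 with HISAT2 2.2.1 and SAMtools 1.21, and counted fragments per gene with featureCounts 1.5.3 on GENCODE 38, giving the deposited raw counts. The strand setting of the counting is not given in the sources used here, so genes that overlap others are uncertain. The deposited FPKM tables were not used.

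Here, the counts were fitted with edgeR 4.0.16 (R 4.3.3) by the robust quasi-likelihood F test, with group as the only term over all 15 libraries, TMM scaling and edgeR's filter on low counts, which left 23711 of 60649 genes. Benjamini-Hochberg adjustment was over all tested genes and calls were made at 0.05. The spread gave a biological coefficient of variation of 0.228, with 10 residual degrees of freedom. SE values were derived from the log2 fold change and its F statistic, and SD values are over the 3 libraries of a group. Symbols came from GENCODE 44 for 99.69% of genes.

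Same-numbered replicates at 0.25 and 0.5 µM deviated together from their group means (correlations 0.266, 0.268 and 0.579 over genes), each over 0.1. Replicate 1 at 0.5 µM and replicate 2 at 0.25 µM also correlated (0.236, and 0.0944 for the reverse), and replicate 3 libraries correlated with other numbers at -0.299 to -0.415, so the numbers 1 and 2 were hardly told apart. The same-number values passed the limit of 0.1 for pairing, but the labels name no shared culture. Deviations from a group mean cancel out over its libraries, so the values for numbers 1 and 2 also reflect replicate 3. They are no separate evidence of pairing, which was run as an alternative. The main design has no pairing.

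Named genes were the 8 largest changes in each direction, the extreme called members of each list, the largest switch genes, genes silent on one side, genes that turned, and genes the study names; some of these genes are not reported here. Other list members given as examples were chosen after their values were seen. Members and lists were chosen with earlier results of these data known. Alternatives were DESeq2 1.42.0, other scalings and filters, the 6 libraries alone, pairing, and leaving out libraries.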

Additional observations from a re-analysis of the deposited data

How the results depend on the processing

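Across 2259 repeats of gene values under other settings, 2150 kept both their direction and their side of the threshold, 80 were no longer called, 29 became called and 0 reversed. Of 148 repeated counts and shares, 128 stayed within 1.5 times. Of the 143 named genes 121 were called, and 103 were called under all alternatives run.

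The 6 libraries alone gave 4841 calls, of which 2227 were higher. Requiring at least 10 counts in every library left 14096 genes, with 761 higher and 1363 lower over 2-fold. Rising switch genes numbered 391 with DESeq2, 404 without both replicate 3 libraries, 139 by library totals and 566 with the replicate block, and falling ones 1187 with the block. The change differed from the preceding step in 4224 genes with the block, and from the following step in 3634 without both replicate 3 libraries and 4340 with the block. The cause of these shifts was not tested. Leaving out single libraries gave 5810 to 8265 calls, 125 to 589 rising and 500 to 1168 falling switch genes, 1070 to 3664 genes against the preceding step and 1320 to 3289 against the following step. With the block 9482 genes were called. Besides the calls given with the results, pairing changed no other call among the named genes reported here in the fit over all 15 libraries. In the 6 libraries alone with the block further named genes were called, among them BAD (log2 change 0.72), ATF4 (-0.33) and COL1A1 (0.30). Without both replicate 3 libraries BUB1B was -0.24, without replicate 3 at 0.5 µM VARS1 was -0.64, and without replicate 1 at 0.5 µM FTL was 0.59.

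The spread of 3 libraries limits small changes, and genes of few counts have wide errors.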
